A study of Homo sapiens with 17 samples.

Results

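The heat shock genes and cytosolic chaperone genes were a list of 47 genes chosen by name, and all 47 were found among the 19141 genes of the count table. The list held 2 heat shock factors, 7 genes of the HSP70 family, 3 of the HSP110 family, 9 J-domain proteins, 5 BAG proteins, HSP90 and its partners (8 genes), 4 mitochondrial chaperones, 2 small heat shock proteins and 7 subunits of the CCT chaperonin. RNA was measured in YB5 cells, a derivative of SW48 human colon cancer cells with a GFP gene behind a methylated, silent viral promoter. The cells received 250 nM toyocamycin, an adenosine analog, or its solvent DMSO, to follow how gene expression changed over time. The 17 libraries of polyA RNA comprised 2 per arm at 2 h, 1 per arm at 24 h and at 48 h, and 3 per arm at 72 h. At 10 h there was 1 DMSO library and 2 toyocamycin libraries. The time of 72 h is that of the labels, whereas the paper names a later time for its last libraries.

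Chaperones bind unfolded proteins and help them reach or keep their folded form. HSP70 proteins work in cycles of ATP binding and hydrolysis, which J-domain proteins speed up and which HSP110 and BAG proteins reset by exchanging the nucleotide. HSP90 receives kinases and hormone receptors from HSP70 with the help of co-chaperones, and the CCT ring folds actin and tubulin. The factor HSF1 drives many of these genes under heat or protein stress by binding inverted repeats of the letters GAA in their promoters. Tumour cells, colon cancer cells among them, commonly express several chaperones at a high level without heat.

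These repeats are shown first because the genes that carry them moved in opposite directions on the drug. RefSeq promoter sequences on GRCh38.p14 were matched for 43 of the 47 genes, the exceptions being HSF1, HSPA14, BAG4 and FKBP4. Both strands of the 250 bases before each start were searched for 3 units in a row, GAANNTTCNNGAA or TTCNNGAANNTTC. These letters were found in 4 of the 43 promoters (9.3%), against 155 of 35116 promoters of all genes (0.441%). The shorter pair of units, GAANNTTC or TTCNNGAA, was found in 11 of the 43 (25.6%), against 4067 of all promoters (11.6%), and every triple also holds a pair. The capitals below mark the triple units, which overlap one another in CHORDC1. HSPA8 has 2 separate matches, and all 30 bases shown around each lie in exons of longer annotated transcripts, so these windows were kept short. The window of CHORDC1 was shortened to leave out annotated exons.
HSPA8, distal match (chr11:123062345-123062374, minus strand): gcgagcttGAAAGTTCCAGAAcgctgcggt
HSPA8, proximal match (chr11:123062170-123062199, minus strand): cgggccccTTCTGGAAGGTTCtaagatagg
HSPA6 (chr1:161524436-161524535, plus strand): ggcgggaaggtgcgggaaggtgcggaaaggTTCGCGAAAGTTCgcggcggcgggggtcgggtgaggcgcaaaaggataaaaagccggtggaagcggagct
DNAJB6 (chr7:157336843-157336942, plus strand): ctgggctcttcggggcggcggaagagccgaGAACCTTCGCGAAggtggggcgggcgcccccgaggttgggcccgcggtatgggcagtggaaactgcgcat
CHORDC1 (chr11:90223078-90223149, minus strand): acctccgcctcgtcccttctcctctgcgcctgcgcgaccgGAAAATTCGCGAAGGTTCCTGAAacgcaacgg
At 72 h HSPA8 fell, whereas HSPA6, DNAJB6 and CHORDC1 rose. At that time 47.0% of all genes were called higher and 41.9% lower, so calls in both directions do not set these genes apart. Of the other genes with a pair, HSPA1A, HSPA1B, HSPB1, DNAJA1, BAG2 and TCP1 fell at 72 h, and HSPB8 was not tested. The fall of TCP1 turned to a change of 0.0048 on the log2 scale with DESeq2's size factors. The calls of DNAJB6, HSPA1A, DNAJA1 and BAG2 were each lost under a setting given below. A match describes letters in a window and does not show that a factor binds there. A single start per listed gene was searched, whereas the share over all promoters counted every promoter entry. Only exact letters were searched, so a miss does not show that a gene lacks such repeats.

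The depth ranged from 8735465 to 22121364 reads counted on genes, and replicate 2 of 10 h toyocamycin was the shallowest library. Batch 2 of the labels held 4 libraries, replicate 2 of each arm at 2 h and at 10 h. The 9 colon epithelium markers were EPCAM, CDH1, KRT8, KRT18, KRT19, VIL1, CDX2, CDX1 and LGALS4. Of these, 6 had 1 CPM (counts scaled to a common library size) or more in every DMSO library. EPCAM, CDH1, KRT8, KRT18 and CDX2 were expressed, whereas CDX1 was at 0 in the DMSO libraries. LGALS4 was at 0 in toyocamycin at 24 h. The summed level of the 9 markers at 72 h was 5988 to 6931 CPM in DMSO and 532 to 563 CPM in toyocamycin. The summed level of 8 markers of other cell types was 1.40 to 12.4 CPM in the 8 DMSO libraries and 88.4 to 111 CPM in toyocamycin at 72 h, most of it from ACTA2. The part of these shifts in the results was not tested. Of the 47 genes, 17 overlap another protein-coding gene, 16 of them one on the other strand, and the strand setting of the counting is not given in the sources used here. Reads of such partners cannot be told apart.

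Each level below is in CPM after TMM scaling, and each fold change is the log2 ratio of toyocamycin to DMSO fitted by edgeR. A change was called where the adjusted p (edgeR's quasi-likelihood test, Benjamini-Hochberg over all genes tested) was under 0.1. HSPB8, a small heat shock protein, was too low for the fit of 2, 24, 48 and 72 h, so 46 of the 47 genes were tested there. It had 9 counts in replicate 2 of toyocamycin at 10 h and 0 to 3 counts in each of the other libraries, so no fold change is given for it. In bulk RNA, fewer cells that express a gene and less of its RNA per cell cannot be told apart.

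**Figure D1:**
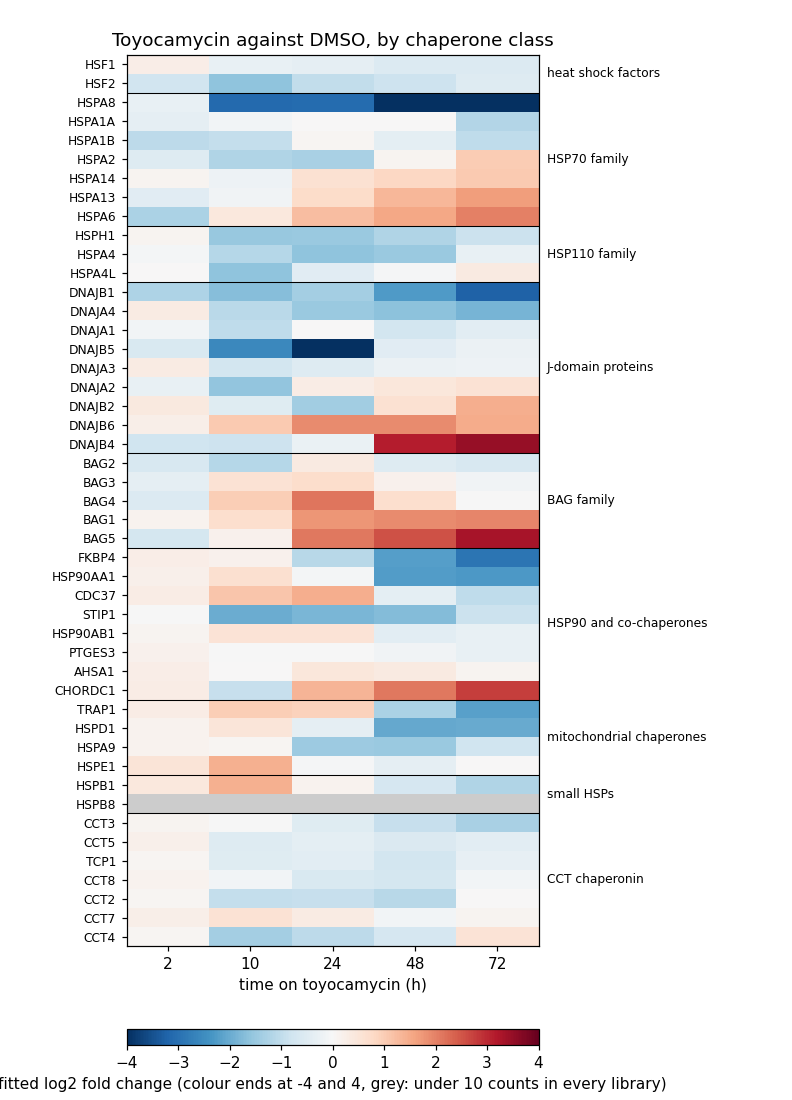
Fitted log2 fold changes of toyocamycin against DMSO, one row per gene in the order of the classes and one column per time (h), with the 10 h column from the fit of all 17 libraries. Blue is lower and red is higher on toyocamycin, and the colour ends at 4 in each direction. HSPA8 is dark blue from 10 h on, and DNAJB4, BAG5 and CHORDC1 are red at 48 and 72 h.

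After 2 h of toyocamycin, 6 of 46 chaperone genes fell (8.42% of all genes did) and 0 rose (0.518% of all genes). The genes that fell were DNAJB1, HSPA1B, HSPA6, HSF2, BAG5 and BAG4. Of the other 40, 5 had a positive change at an unadjusted p under 0.05 in edgeR, and DESeq2 called 1 gene higher. The median change of the 46 genes was 0.11 on the log2 scale, beside 0.02 for all genes. With the replicate number as a block, which at 2 h is also the batch in the labels, 14 chaperone genes were lower and 10 were higher, beside 18.7% and 8.72% of all genes in that fit of the 2 h libraries alone. The 14 were the 6 above with HSPA2, HSPA8, HSPA13, DNAJA2, DNAJB4, DNAJB5, BAG2 and BAG3. With 2 libraries per arm and a block, that fit holds little information on the spread of each gene by itself. Its calls therefore lean on the spread shared over genes. With the batch as a term in a fit of all 17 libraries, the 6 kept the call and BAG2 was the only other chaperone gene called. In that fit 7.23% of all genes were lower and 0.375% were higher. Scaled on the mitochondrially encoded genes, 0 were called lower (0.6% of all genes), though the 6 kept their direction.

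DNAJB1, a J-domain partner of HSP70 that heat induces strongly, had 162 and 174 CPM in DMSO at 2 h and 70.4 and 72.8 CPM in toyocamycin. The arms did not overlap, and the log2 fold change was -1.23 (SE 0.14), with an adjusted p of 6.2e-05 in edgeR. The log2 ratio was -1.20 within batch 1 and -1.255 within batch 2. The call for DNAJB1 also held without any single library of 2 h, at -1.29 to -1.18. HSPA1B, an inducible HSP70, had 75.5 and 46.7 CPM in DMSO and 36.3 and 22.2 CPM in toyocamycin at 2 h. In each arm its batch 2 library was the lower, and the log2 ratio was -1.05 within batch 1 and -1.055 within batch 2. HSPA1A, its near-identical copy whose reads can be lost or shared between them, had at most 2.18 CPM in any library.

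HSPA6, an HSP70 that is nearly silent without stress, had 2.40 and 1.64 CPM in DMSO at 2 h and 1.04 and 0.596 CPM in toyocamycin. These levels rest on 11 to 57 counts, and the log2 fold change was -1.28 (SE 0.40). HSF2, the second heat shock factor, had 13.9 and 16.0 CPM in DMSO and 9.36 and 8.23 CPM in toyocamycin, a log2 fold change of -0.76 (SE 0.22). BAG5, which binds HSP70 through several BAG domains, had 86.9 and 122 CPM in DMSO and 58.5 and 70.2 CPM in toyocamycin. For BAG4, another exchange factor of HSP70, the levels were 31.7 and 38.1 CPM in DMSO and 23.7 and 24.5 CPM in toyocamycin. In all 4 genes every toyocamycin library lay below both DMSO libraries, as 20.3% of all genes did. HSPA1B and HSPA6 lost the call without replicate 1 of DMSO or replicate 2 of toyocamycin. HSF2 and BAG4 lost it without replicate 2 of DMSO or either toyocamycin library, and BAG5 without replicate 2 of DMSO or replicate 1 of toyocamycin.

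HSF1, the main heat shock factor, had 99.3 and 77.5 CPM in DMSO at 2 h and 119 and 91.7 CPM in toyocamycin, and the arms overlapped. Its log2 fold change was 0.25 (SE 0.19), with 0.26 within batch 1 and 0.24 within batch 2. In the fit of the 2 h libraries alone with the batch as a block, HSF1 was called higher, at 0.24 on the log2 scale. Its adjusted p there was 0.0994 in edgeR. The 8 genes of HSP90 and its partners, the 4 mitochondrial chaperones and the 7 CCT subunits held no called gene at 2 h without the block, and their medians were 0.23, 0.23 and 0.11 on the log2 scale. With the block, HSPE1, TRAP1, CDC37, FKBP4 and AHSA1 of these classes were called higher, as were DNAJB2, DNAJA4, DNAJA3 and HSPB1, at 0.25 to 0.50 on the log2 scale. Neither HSF1 nor any of these genes was called with the batch as a term in the fit of all 17 libraries. For CDC37 the log2 ratio was 0.22 within batch 1 and 0.40 within batch 2, whereas for HSPE1 it was 0.022 and 1.01. A miss of the threshold with 2 libraries per arm does not show that these genes did not change.

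At 10 h, 9 of 47 chaperone genes rose (20.4% of all genes) and 20 fell (24.4% of all genes). The chaperone median was -0.20 on the log2 scale, beside 0.42 for all genes in the same fit. The DMSO arm at 10 h was 1 library, of batch 2, so the test took its spread from the groups with replicates and assumed that the lone library varied as they did. Without replicate 2 of toyocamycin the counts were 9 and 19, and without replicate 1, which leaves both arms in batch 2, they were 10 and 21. The calls of HSPB1 and HSP90AB1 were lost without replicate 1, those of CCT7 and HSPA1B without replicate 2, and that of DNAJB4 without either. HSPA8, the constitutive HSP70 of the cytosol, fell most among the tested HSP70 genes. It had 1603 CPM in the DMSO library and 173 and 197 CPM in the toyocamycin libraries, a log2 fold change of -3.11 (SE 0.24) with an adjusted p of 5.9e-07 in edgeR. Both toyocamycin libraries were thus far under the DMSO library and close to each other, although they come from different batches.

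All 3 HSP110 genes fell at 10 h, which are exchange factors of HSP70: HSPA4L by 1.61, HSPH1 by 1.51 and HSPA4 by 1.13 on the log2 scale. Of the 9 J-domain genes, 7 fell and DNAJB6 rose, while DNAJB2 was not called. DNAJB5 fell by 2.58 on the log2 scale, from 6.79 CPM to 0.642 and 1.77 CPM. STIP1, which hands clients from HSP70 to HSP90, had 312 CPM in DMSO and 80.6 and 77.0 CPM in toyocamycin, a log2 fold change of -1.98. HSF2 fell by 1.61 on the log2 scale, and CCT4, CCT2 and TCP1 of the chaperonin fell by 1.35, 0.96 and 0.50. Of the 20 genes that fell, 17 were also called under all 3 other scalings tried (on library size, on DESeq2's size factors and on the mitochondrially encoded genes). The other 3, HSPA1B, DNAJB4 and TCP1, lost the call with DESeq2's size factors.

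The 9 genes that rose at 10 h were HSPB1, HSPE1, CDC37, DNAJB6, TRAP1, BAG4, BAG1, CCT7 and HSP90AB1. HSPE1, the lid of the mitochondrial chaperonin, had 7.55 CPM in DMSO and 16.3 and 24.0 CPM in toyocamycin. HSPB1, a small heat shock protein, had 148 CPM in DMSO and 568 and 216 CPM in toyocamycin, so its replicates lay far apart beside a log2 fold change of 1.41 (SE 0.44). Within batch 2, without replicate 1 of toyocamycin, the log2 fold change of HSPB1 was 0.55 and was not called. CDC37, which brings kinases to HSP90, had 207 CPM in DMSO and 525 and 375 CPM in toyocamycin. Scaled on the mitochondrially encoded genes, which left 3.04% of all genes called higher, 0 of the 9 genes were called and 6 turned their direction, those other than HSPB1, HSPE1 and CDC37. HSP90AA1 had 4304 CPM in DMSO and 5578 and 7810 CPM in toyocamycin at 10 h. Its log2 fold change of 0.64 was not called. It was called higher with DESeq2's size factors, whereas the value was -0.56 on the mitochondrial scale.

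**Figure D2:**
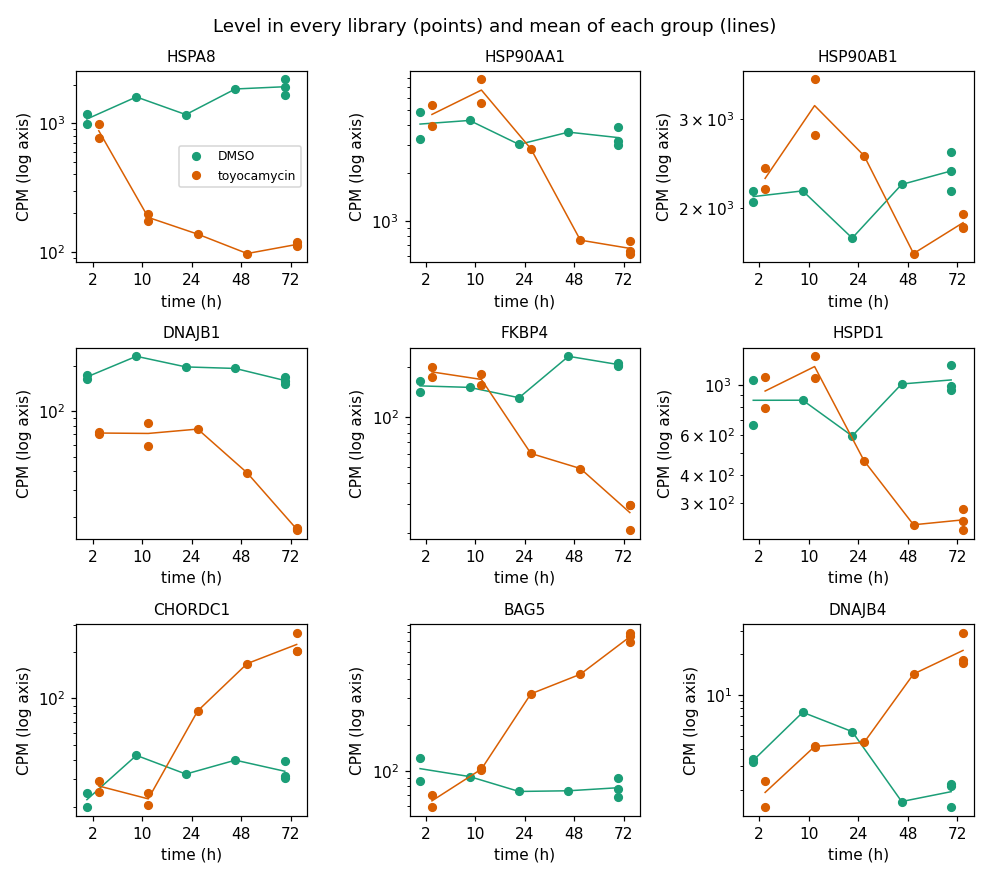
Level of 9 chaperone genes in CPM (log axis) in every library against the time in hours, with points for libraries, lines through the group means and times set at equal distances. HSPA8 on toyocamycin is at most 197 CPM from 10 h on. HSP90AA1 and HSPD1 lie above the DMSO library at 10 h and far below DMSO from 48 h on. CHORDC1, BAG5 and DNAJB4 end above every DMSO library of 72 h.

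The single library per arm at 24 h and at 48 h allowed no test, so genes past a 2-fold difference were counted. At 24 h, 7 of 46 genes were past 2-fold higher (29.7% of all genes) and 12 were past 2-fold lower (27.8% of all genes). At 48 h the counts were again 7 and 12, beside 38.1% and 29.9% of all genes. The median of the chaperone genes was -0.16 at 24 h and -0.44 at 48 h on the log2 scale, beside 0 and 0.16 for all genes. With library size alone the counts past 2-fold lower were 28 at 24 h and 25 at 48 h, beside 48.3% and 40.0% of all genes. Scaled on the mitochondrially encoded genes they were 40 and 39, beside 71.1% and 59.1% of all genes.

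DNAJB6, BAG1, BAG5, CHORDC1 and HSPA6 were past 2-fold higher at both times. BAG5 had 74.1 CPM in DMSO and 319 CPM in toyocamycin at 24 h, and 74.8 and 428 CPM at 48 h. BAG4 was higher at 24 h, with 31.6 CPM in DMSO and 137 CPM in toyocamycin, and nearer to its control at 48 h, with 34.7 and 54.0 CPM. CDC37 was past 2-fold higher at 24 h (184 and 501 CPM), while DNAJB4 (1.64 and 14.3 CPM) and HSPA13 (30.5 and 75.6 CPM) passed it at 48 h.

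HSPA8, HSPA4, HSPH1, HSPA9, DNAJB1, DNAJA4, STIP1 and FKBP4 were past 2-fold lower at both times. The lowest ratio at 24 h was that of DNAJB5, with 11.1 CPM (286 counts) in DMSO and 0.481 CPM (7 counts) in toyocamycin. That DMSO library had the highest DNAJB5 level of the 8 DMSO libraries. At 10 h DNAJB5 had also been lower, with 6.79 CPM in DMSO and 0.642 and 1.77 CPM in toyocamycin. At 48 h DNAJB5 had 4.09 and 2.93 CPM, so the large difference was not seen there. HSP90AA1, the inducible HSP90, had 3036 CPM in DMSO and 2849 CPM in toyocamycin at 24 h, and 3630 and 754 CPM at 48 h. HSPD1, the mitochondrial chaperonin, went from 593 and 461 CPM at 24 h to 1008 and 240 CPM at 48 h. TRAP1, the mitochondrial HSP90, had 185 and 351 CPM at 24 h and 299 and 123 CPM at 48 h. These 3 genes were thus within 2-fold of their control at 24 h and past 2-fold lower at 48 h, without a replicate check.

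At 72 h, 13 of 46 chaperone genes rose (47.0% of all genes) and 24 fell (41.9% of all genes), so both shares were set against a background in which 88.8% of genes were called. The median of the 46 genes was -0.29 on the log2 scale and that of all genes 0.18. Every toyocamycin library lay above every DMSO library in 13 chaperone genes (45.8% of all genes) and below in 25 (41.8% of all genes). The scaling moved the median of all genes to 0.50 with DESeq2's size factors, to -0.42 with library size alone and to -0.89 on the mitochondrially encoded genes. Of the 24 genes that fell, 16 were called lower under all 3 other scalings, and HSP90AB1, PTGES3, TCP1 and HSPA4 turned with DESeq2's size factors. HSF1, HSF2, DNAJA1 and CCT5 kept their direction there but lost the call, at -0.24, -0.21, -0.11 and -0.10 on the log2 scale. Of the 13 that rose, BAG1, CHORDC1, DNAJB4, BAG5 and HSPA6 were called higher under all 3, and DNAJA2, CCT4, HSPA2 and HSPA4L turned under at least 1 of them. HSPA13, HSPA14, DNAJB2 and DNAJB6 lost the call when scaled on the mitochondrially encoded genes.

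**Figure D3:**
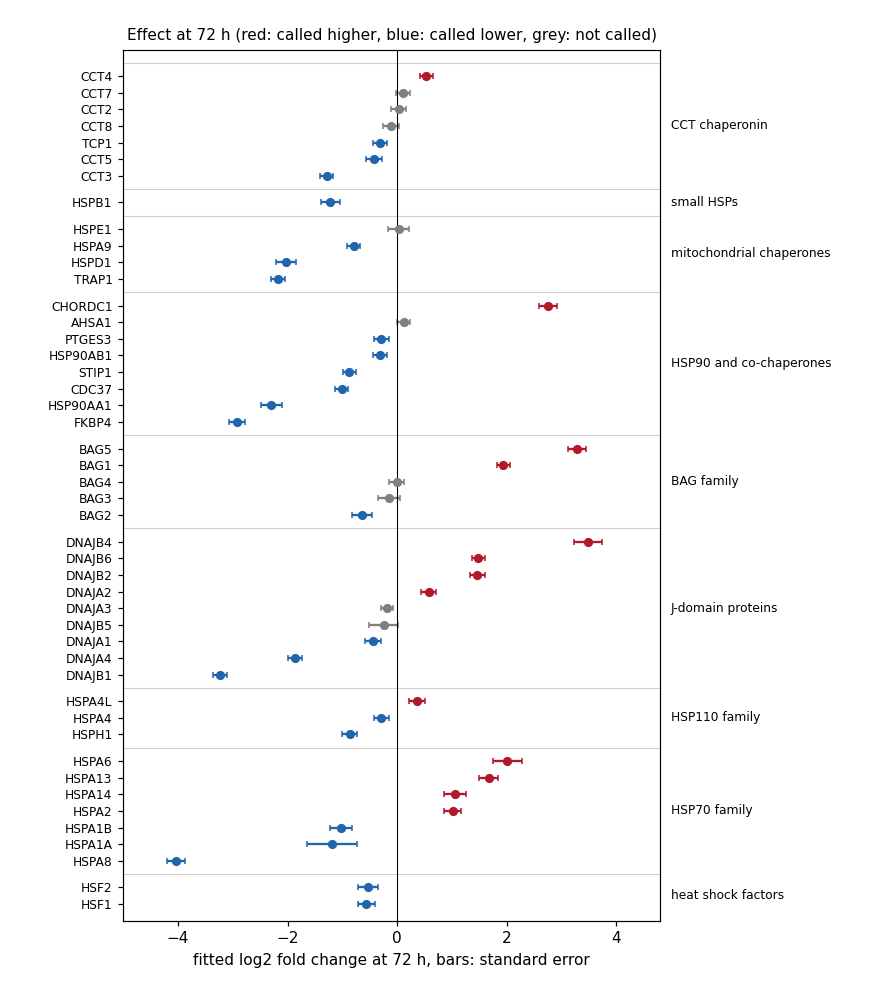
Fitted log2 fold change of toyocamycin against DMSO at 72 h (horizontal axis) for the 46 tested genes by class, with bars of 1 standard error. Red points were called higher, blue points lower and grey points were not called, and HSPA8 at -4.04 and DNAJB4 at 3.49 mark the ends.

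Both heat shock factors fell at 72 h with TMM scaling, and neither was called with DESeq2's size factors. HSF1 had 121, 117 and 88.0 CPM in DMSO and 73.3, 67.5 and 75.3 CPM in toyocamycin, a log2 fold change of -0.56 (SE 0.15) with an adjusted p of 0.00335 in edgeR. HSF2 fell by 0.53 (SE 0.19) on the log2 scale. The arms did not overlap for either factor, and neither change reached 2-fold.

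In the HSP70 family, 3 of 7 genes fell at 72 h and 4 rose. HSPA8 (chr11:123057489-123063230, minus strand) had 1658, 1925 and 2193 CPM in DMSO and 113, 111 and 119 CPM in toyocamycin. The means were 1925 ± 267 and 114 ± 4.22 CPM (SD, n = 3 per arm), a log2 fold change of -4.04 (SE 0.16), the lowest of the 46 genes, with an adjusted p of 5.6e-12 in edgeR. No toyocamycin library came near the DMSO range. HSPA1B had 126, 110 and 101 CPM in DMSO and 61.4, 55.4 and 44.9 CPM in toyocamycin, a log2 fold change of -1.03 (SE 0.20). HSPA1A had 36, 47 and 44 counts in DMSO and 9, 14 and 4 counts in toyocamycin, and its call was lost without replicate 3 of toyocamycin.

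HSPA6 had 3.42, 2.18 and 2.66 CPM in DMSO and 7.86, 13.0 and 11.6 CPM in toyocamycin at 72 h, a log2 fold change of 2.01 (SE 0.27) with an adjusted p of 3.9e-06 in edgeR. It had been lower at 2 h, and its levels stayed low in every library. HSPA13, an HSP70 of microsomes, had 28.6, 30.1 and 42.3 CPM in DMSO and 115, 98.3 and 102 CPM in toyocamycin, a log2 fold change of 1.67 (SE 0.18). HSPA14, which sits on the ribosome, rose by a log2 fold change of 1.06, and HSPA2, best known from testis, by 1.02. For HSPA2 the value was -0.094 when scaled on the mitochondrially encoded genes.

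Among the HSP110 genes, HSPH1 had 91.4, 74.9 and 89.8 CPM in DMSO and 49.7, 39.8 and 48.3 CPM in toyocamycin at 72 h, a log2 fold change of -0.86 (SE 0.14). HSPA4 and HSPA4L moved by -0.29 and 0.37 on the log2 scale. The calls of HSPA4 and HSPA4L were lost when some single libraries were left out, and both directions turned under another scaling. All 3 genes had been lower at 10 h.

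Of the 9 J-domain genes, 3 fell and 4 rose at 72 h. DNAJB1 (chr19:14514769-14560391, minus strand) had 169, 159 and 150 CPM in DMSO and 16.2, 16.8 and 16.6 CPM in toyocamycin. The means were 159 ± 9.05 and 16.5 ± 0.283 CPM (SD, n = 3 per arm), a log2 fold change of -3.24 (SE 0.12) with an adjusted p of 3.5e-12 in edgeR. DNAJB1 was thus lower at every time and lowest at 72 h, and it overlaps TECR on the other strand. DNAJA4 fell by 1.87 (SE 0.13) on the log2 scale, from 59.1, 63.8 and 66.4 CPM to 16.4, 16.6 and 17.6 CPM. DNAJA1, the other main partner of HSPA8, fell by 0.43 (SE 0.15) on the log2 scale, a call that was lost with DESeq2's size factors.

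DNAJB4 (chr1:77979175-78017964, plus strand), a close relative of DNAJB1, had 2.13, 1.49 and 2.19 CPM in DMSO and 28.7, 18.3 and 17.2 CPM in toyocamycin at 72 h. Its log2 fold change of 3.49 (SE 0.26), with an adjusted p of 4.0e-09 in edgeR, was the highest of the 46 genes. The DMSO libraries of earlier times reached 7.47 CPM, which is still below each of these toyocamycin libraries. DNAJB4 overlaps GIPC2 on the same strand. DNAJB6, which keeps aggregation-prone proteins soluble, had 115, 116 and 136 CPM in DMSO and 330, 333 and 333 CPM in toyocamycin. DNAJB2, a chaperone rich in neurons, rose by a log2 fold change of 1.47 (SE 0.14), although at 24 h it had been past 2-fold lower than its control. That DMSO library of 24 h had 65.6 CPM of DNAJB2 and the other 7 DMSO libraries 28.3 to 41.0 CPM, within 2-fold of the 24.8 CPM in toyocamycin. DNAJA2 rose by 0.58 on the log2 scale and turned to -0.022 with library size alone, and DNAJA3 and DNAJB5 were not called. DNAJB5 had 3.54, 6.67 and 3.39 CPM in toyocamycin, so replicate 2 alone lay above the DMSO range.

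Within the BAG family, BAG5 (chr14:103556545-103562657, minus strand) had 76.4, 68.5 and 90.1 CPM in DMSO and 792, 764 and 693 CPM in toyocamycin at 72 h. The means were 78.3 ± 10.9 and 750 ± 51.3 CPM (SD, n = 3 per arm), a log2 fold change of 3.29 (SE 0.16) with an adjusted p of 4.5e-11 in edgeR. BAG5 overlaps KLC1 on the other strand. BAG1, an exchange factor that also binds the proteasome, had 160, 147 and 133 CPM in DMSO and 604, 502 and 549 CPM in toyocamycin, a log2 fold change of 1.94 (SE 0.13). BAG2, which blocks the ubiquitin ligase CHIP, fell by 0.64 (SE 0.18) on the log2 scale and was not called by the DESeq2 Wald test. BAG3, the heat-inducible BAG protein that directs clients to autophagy, had 79.1, 74.6 and 59.8 CPM in DMSO and 49.2, 71.6 and 67.5 CPM in toyocamycin. Its arms overlapped, and BAG3 was not called at 10 or 72 h, nor at 2 h without the block. At 10 h BAG3 had 51.2 CPM in DMSO and 113 and 38.1 CPM in toyocamycin, so its replicates lay on opposite sides of the DMSO library. The log2 fold change of BAG3 at 10 h was 0.57, and -0.43 or 1.15 with 1 toyocamycin library left out. BAG4 had a log2 fold change of -0.0054 (SE 0.14) and was not called.

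Of the 8 genes of HSP90 and its partners, 6 fell at 72 h and CHORDC1 rose. HSP90AA1 had 2993, 3170 and 3901 CPM in DMSO and 746, 621 and 641 CPM in toyocamycin, a log2 fold change of -2.29 (SE 0.18) with an adjusted p of 1.1e-08 in edgeR. HSP90AB1, the constitutive HSP90, had 2167, 2366 and 2580 CPM in DMSO and 1954, 1838 and 1833 CPM in toyocamycin, a log2 fold change of -0.31 (SE 0.13). The HSP90AB1 value was 0.016 with DESeq2's size factors, and its call was lost without replicate 3 of DMSO. FKBP4, an immunophilin of the steroid receptor complex, had 212, 202 and 204 CPM in DMSO and 20.7, 29.6 and 29.3 CPM in toyocamycin, a log2 fold change of -2.92 (SE 0.15). CDC37, STIP1 and PTGES3, the co-chaperone p23, fell by 1.01, 0.87 and 0.28 on the log2 scale, and PTGES3 turned to 0.039 with DESeq2's size factors. AHSA1, the activator of the HSP90 ATPase, was not called, with 0.12 (SE 0.12).

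CHORDC1, an HSP90 partner that heat induces, had 31.4, 30.6 and 39.6 CPM in DMSO and 264, 202 and 204 CPM in toyocamycin at 72 h. The log2 fold change was 2.75 (SE 0.16), with an adjusted p of 2.5e-10 in edgeR. At 10 h CHORDC1 had been lower, with 42.9 CPM in DMSO and 24.4 and 20.4 CPM in toyocamycin.

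Of the mitochondrial chaperones, HSPD1, TRAP1 and HSPA9 fell at 72 h and HSPE1 was not called. HSPD1 had 944, 985 and 1223 CPM in DMSO and 282, 227 and 248 CPM in toyocamycin, a log2 fold change of -2.02 (SE 0.19). TRAP1 had 351, 347 and 285 CPM in DMSO and 69.6, 68.4 and 74.3 CPM in toyocamycin, a log2 fold change of -2.18 (SE 0.13). HSPE1, which is transcribed from the same bidirectional promoter as HSPD1, had 13.0, 12.6 and 16.2 CPM in DMSO and 14.4, 13.9 and 13.5 CPM in toyocamycin. The 2 genes overlap on opposite strands, and HSPE1 also overlaps the readthrough gene HSPE1-MOB4, which can hold part of its reads. HSPB1 fell by 1.22 (SE 0.17) on the log2 scale at 72 h, whereas its higher call at 10 h rested on replicate 1 of toyocamycin.

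The 7 measured CCT subunits, which sit side by side in the same ring, parted at 72 h. CCT3 had 402, 417 and 430 CPM in DMSO and 173, 164 and 163 CPM in toyocamycin, a log2 fold change of -1.29 (SE 0.12). CCT4 had 179, 166 and 168 CPM in DMSO and 249, 236 and 241 CPM in toyocamycin, a log2 fold change of 0.53 (SE 0.12). The arms of CCT3 and of CCT4 did not overlap, and the value of CCT4 was -0.066 with library size alone. CCT5 and TCP1 fell by 0.42 and 0.32 on the log2 scale, though neither was called with DESeq2's size factors, and CCT2, CCT7 and CCT8 were not called.

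**Figure D4:**
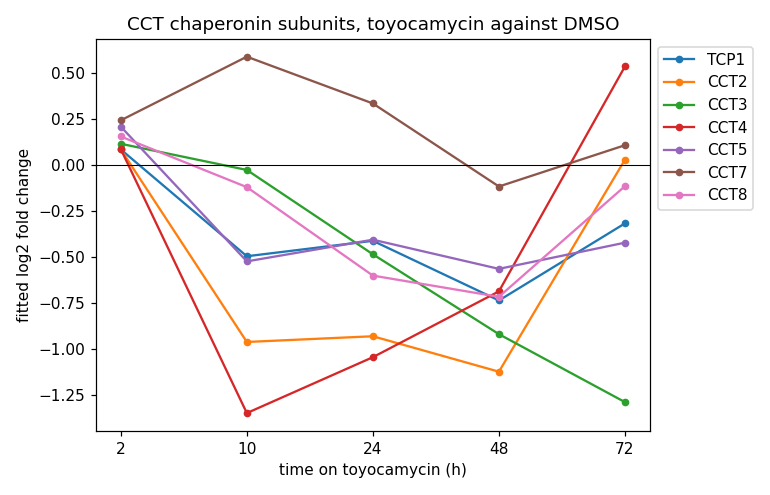
Fitted log2 fold change of toyocamycin against DMSO (vertical axis) for the 7 CCT subunits among the 47 genes. The times 2, 10, 24, 48 and 72 h are set at equal distances. The subunits lie together at 2 h, CCT4 is the lowest at 10 h and the highest at 72 h, and CCT3 is the lowest at 72 h.

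Ratios of 2 genes within a library do not depend on how libraries are scaled, and gene length cancels when a ratio is compared between libraries. The ratio of HSP90AA1 to HSP90AB1 counts was 1.41 ± 0.0899 in DMSO and 0.356 ± 0.0227 in toyocamycin at 72 h (SD, n = 3 per arm), and 1.34 to 2.26 over the 8 DMSO libraries. The ratio of HSPD1 to HSPE1 went from 75.4 ± 2.92 to 18.1 ± 1.69. HSPE1 overlaps HSPE1-MOB4 on the same strand, so part of its reads may be missing from its count. The effect of this on the ratio was not tested. The ratio of CCT3 to CCT4 went from 2.44 ± 0.168 to 0.689 ± 0.0115, and that of HSPA8 to HSPA4 from 8.19 ± 0.808 to 0.611 ± 0.0703. The pairs were chosen with the changes of their genes known, so the ratios are a description with no test. The CCT3 to CCT4 ratio was 5.45 and 6.72 in toyocamycin at 10 h and 0.675 to 0.696 at 72 h, so it lay on both sides of the DMSO values.

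Counts on the 47 genes made up 1.56% to 1.89% of each DMSO library. The share on toyocamycin was 1.64% and 1.94% at 2 h, 1.38% and 1.80% at 10 h, 0.772% at 24 h, 0.645% at 48 h and 0.655% to 0.746% at 72 h. Every toyocamycin library from 24 h on thus lay under every DMSO library. Without HSPA8, HSP90AA1 and HSPD1 the share was 0.932% to 1.06% in DMSO and 0.585% to 0.660% in toyocamycin at 72 h. Meanwhile the top 100 genes by count took 34.5% to 37.4% of the counts on toyocamycin from 24 h on and 18.6% to 22.2% on DMSO, and the part of this in the share was not tested.

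**Figure D5:**
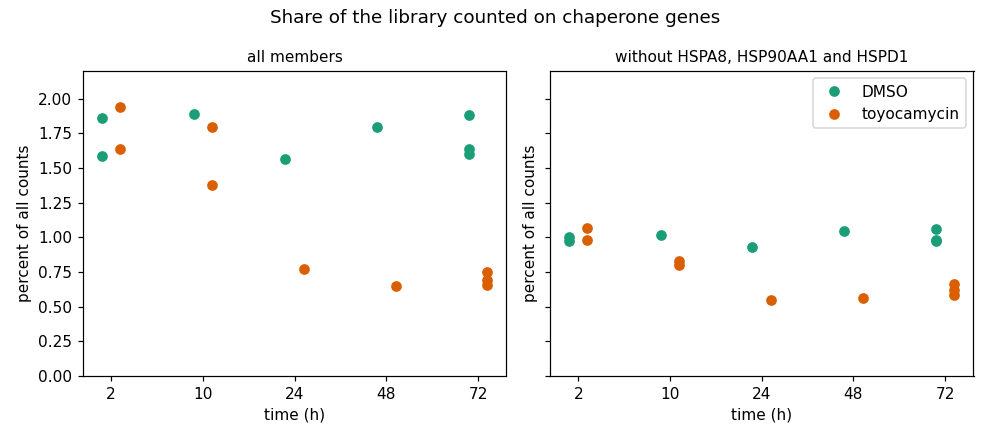
Share of all counts (%) on the 47 chaperone genes in each library (left) and on those without HSPA8, HSP90AA1 and HSPD1 (right), against the time in hours set at equal distances. The DMSO libraries lie at 1.56% to 1.89% on the left, and the toyocamycin libraries of 24 to 72 h lie at 0.645% to 0.772%.

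Several genes changed in opposite directions at different times, each call being that of its own comparison. BAG5 and HSPA6 were lower at 2 h and higher at 72 h (5.1% of all genes). HSP90AB1, CDC37, HSPB1 and TRAP1 were higher at 10 h and lower at 72 h (7.6% of all genes). DNAJA2, CHORDC1, CCT4, HSPA2, DNAJB4 and HSPA4L were lower at 10 h and higher at 72 h (6.7% of all genes). The 10 h calls of DNAJB4, HSPB1 and HSP90AB1 were lost without single libraries, and no gene that was higher at 10 h was called when scaled on the mitochondrially encoded genes. Of the 6 that were lower at 10 h, CHORDC1 was called at both times under all 3 other scalings. The effect at 72 h was above that at 2 h in 13 of 46 chaperone genes (38.0% of all genes) and below it in 19 (38.1% of all genes).

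A further list held 76 genes of the same pathways, of which 71 were tested in the fit of 72 h. At 72 h 34 were higher, 34 were lower and 3 were not called, beside 47.0% and 41.9% of all genes. These counts do not set the list apart. The totals of the list include the 4 small heat shock proteins of the next paragraph, which passed the filter through the toyocamycin libraries. At 2 h, 0 of these 71 genes were higher in edgeR, 1 having an unadjusted p under 0.05, and 4 were lower, beside 0.518% and 8.42% of all genes. At 10 h, 15 of 72 rose and 28 fell, beside 20.4% and 24.4% of all genes. The counts of the groups below stand against the same shares of 72 h. Of the 18 other HSP90 co-chaperones, 11 fell and 6 rose at 72 h. FKBP5, an immunophilin like FKBP4, had 48.1 ± 2.51 CPM in DMSO and 3.49 ± 0.475 CPM in toyocamycin at 72 h (SD, n = 3 per arm). PPP5C, the phosphatase of HSP90 complexes, had 129 ± 8.97 and 9.62 ± 1.30 CPM. TOMM34, which links HSP70 and HSP90 to mitochondrial import, rose by a log2 fold change of 1.84.

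Among the 8 other HSF1 targets and regulators, 2 rose and 4 fell at 72 h. SERPINH1, the collagen chaperone of the endoplasmic reticulum, fell by 3.71 (SE 0.16) on the log2 scale, whereas ZFAND2A, a partner of the proteasome that heat induces, rose by a log2 fold change of 2.50 (SE 0.16). Of the 23 other J-domain genes tested, 12 rose and 11 fell, with DNAJC25 at 3.28, DNAJC5, a chaperone of vesicles, at 1.99 and DNAJC13, an endosome protein, at -3.02 on the log2 scale. Among the 11 prefoldin and chaperonin partner genes, which include CCT6A and CCT6B, 6 rose and 5 fell. Of the 8 other small heat shock proteins, CRYAB, HSPB6, HSPB7 and HSPB9 were tested, and the highest level of these 4 was 4.54 CPM, that of CRYAB in toyocamycin at 72 h. They were near 0 in DMSO at 72 h and passed the filter through the toyocamycin libraries, so no separate count of calls is given for them.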

How the data were processed

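RNA-seq counts of 8 DMSO and 9 toyocamycin libraries of YB5 cells were used. The authors aligned reads to GRCh38 with STAR 2.7.5a and deposited raw counts per gene, whole numbers without normalization. A second deposited table, of fold changes and p-values from the authors' own comparisons, was left unused, as was 1 column of counts that matched no sample of the labels. Of 19141 genes, 19080 were matched to a symbol, with positions from GENCODE on GRCh38.

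The 47 genes and the other gene lists were chosen with earlier results of these data known. Genes were filtered with filterByExpr and libraries scaled with TMM in edgeR 4.0.16 (limma 3.58.1, R 4.3.3), and the quasi-likelihood test used the form of the authors' version. The times 2, 24, 48 and 72 h were fitted together (14 libraries, 14491 genes) and 10 h in a fit of all 17 libraries (16521 genes), where DMSO is 1 library and the toyocamycin replicates come from different batches. The p-values set each change against the spread between replicate libraries, taken from the groups with replicates in the same fit. Full levels were given for genes called at 2 h, the 6 highest and 6 lowest called at 72 h, genes that turned or whose replicates disagreed, and 8 core heat shock genes. Of the further pathway genes, the 4 highest and 4 lowest at 72 h with an average log2 CPM of at least 4 were named, and the small heat shock proteins were added after their values were seen.

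The depth was 8735465 to 22121364 counts per library. No molecular identifiers were used, so reads may repeat molecules. At 2 h the replicate number is the batch in the labels, so it pairs the libraries, whose deviations correlated at 0.307. In data simulated for the 2 h comparison over 13782 genes, 72% of 2-fold and 100% of 4-fold changes were recovered, and 8.99% of the calls were false. The simulation gave every gene the same spread, held no batch and changed no gene of very low level. The recovery in the real libraries can therefore differ. The analysis was repeated with other scalings, the Wald test of DESeq2 1.42.0, other filters, the edgeR 4 form of the test, an adjusted p under 0.05, a batch term, a block for the replicate number, other library sets and each library left out.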

Additional observations from a re-analysis of the deposited data

Results flagged for a closer look

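The effect of toyocamycin at 72 h differed from that at 2 h in 32 chaperone genes by edgeR's test of the difference itself (76.1% of all genes differed). Values are effect at 72 h minus effect at 2 h, on the log2 scale, each at an adjusted p under 0.1. In the HSP70 and HSP110 families the difference was -3.74 for HSPA8, -0.98 for HSPH1, 0.96 for HSPA14, 1.54 for HSPA2, 2.13 for HSPA13 and 3.29 for HSPA6. Among J-domain genes it was -2.21 for DNAJA4, -2.003 for DNAJB1, -0.50 for DNAJA3, 0.88 for DNAJA2, 1.07 for DNAJB2, 1.23 for DNAJB6 and 4.29 for DNAJB4, the highest of the 46 genes. Of the BAG genes, BAG4 differed by 0.53, BAG1 by 1.80 and BAG5 by 3.99. HSP90 and its partners gave -3.20 for FKBP4, -2.50 for HSP90AA1, -1.32 for CDC37, -0.85 for STIP1, -0.45 for PTGES3, -0.43 for HSP90AB1 and 2.46 for CHORDC1. The mitochondrial chaperones TRAP1, HSPD1 and HSPA9 differed by -2.49, -2.16 and -0.94, HSPB1 by -1.65 and HSF1 by -0.81. In the chaperonin the values were -1.40 for CCT3, -0.63 for CCT5, -0.40 for TCP1 and 0.45 for CCT4. For DNAJB1, which had already fallen at 2 h, the difference adds to the early decline, whereas for BAG5 and HSPA6 it passes from a lower to a higher level.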

How the results depend on the processing

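Scaled on the mitochondrially encoded genes, chaperone genes called lower at 2 h numbered 0 (0.6% of all genes were), those called higher at 10 h 0 (3.04%), those called higher at 72 h 5 (29.0%), and those with a higher effect at 72 h than at 2 h 4 (19.4%). Past 2-fold higher there were then 0 at 24 h (8.98%) and 1 at 48 h (20.1%), and past 2-fold lower 40 (71.1%) and 39 (59.1%). With library size alone, 2 were past 2-fold higher (16.3%) and 28 past 2-fold lower (48.3%) at 24 h, and 25 past 2-fold lower (40.0%) at 48 h. Called lower at 72 h were 15 with at least 10 counts required in every library (46.3%) and 14 with the DESeq2 Wald test (36.4%), which also called 1 higher at 2 h (0.614%). With all 17 libraries in the fit, 2 were called lower at 2 h (4.91%).

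Some single genes changed sign. On the mitochondrial scale the log2 changes at 10 h became -0.54 for HSP90AB1, -0.034 for DNAJB6, -0.43 for BAG1, -0.14 for BAG4, -0.59 for CCT7 and -0.095 for TRAP1. At 72 h they became -0.094 for HSPA2, -0.68 for HSPA4L, -1.02 for HSPE1, -0.47 for DNAJA2, -1.02 for CCT2, -0.55 for CCT4, -0.97 for CCT7 and -0.95 for AHSA1. With library size alone they were -0.24 for HSPA4L, -0.57 for HSPE1, -0.022 for DNAJA2, -0.57 for CCT2, -0.066 for CCT4, -0.49 for CCT7 and -0.48 for AHSA1. With DESeq2's size factors, and likewise with the DESeq2 Wald test, they were 0.036 for HSPA4, 0.016 for HSP90AB1, 0.32 for BAG4, 0.0048 for TCP1 and 0.039 for PTGES3, and BAG4 had 0.28 with at least 10 counts required. The cause was not tested.

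With the replicate number as a block in a fit of the 2 h libraries alone, 18 of 46 calls changed. Called higher were 10 chaperone genes (8.72% of all genes), and 14 were called lower (18.7%). At 72 h same-numbered libraries did not deviate together (r of -0.105, 0.0427 and -0.0876), and not every library correlated best with its own number. The block in a fit of the 72 h libraries alone gave 13 higher (45.1%) and 20 lower (43.9%). Leaving out single libraries gave 0 to 2 higher and 3 to 6 lower at 2 h, and 12 to 13 higher and 21 to 24 lower at 72 h. A lone library left in an arm was assumed to vary like the other groups. Depth limits HSPB8, HSPA1A and HSPA6, which had few counts.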
